A study of Bos taurus with 8 samples.

Results

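The Wnt pathway genes examined here were the 52 rows of the expression table, out of 18871 named genes, whose symbol is that of a WNT ligand, a Frizzled or other Wnt receptor, an R-spondin or LGR receptor, a Wnt antagonist, or a core intracellular or nuclear component. They were picked by symbol alone, so their measured values played no part in the rule. They comprised 10 ligands, 2 ligand secretion genes, 10 Frizzled receptors, 5 co-receptors, 4 R-spondin and LGR genes, 2 receptor-removing ligases, 11 antagonists, 5 intracellular genes and 3 TCF factors. Other genes of these families, such as *WNT1*, *WNT4*, *LGR5*, *WIF1* and *LEF1*, were not analysed here. RNA-seq was performed on 8 preadipocyte clones, each grown from a single stromal vascular fraction (SVF) cell of adult male Angus cross cattle, 4 from intramuscular fat (IMF1 to IMF4) and 4 from subcutaneous fat (SF1 to SF4). The labels name 5 steers whereas the study's methods give another number, and the sources used here do not tell which clones came from the same animal. No clone carried a genetic change or received a test compound, and all had been chosen by the study for fast growth, strong adipogenic capacity and fibroblast-like shape, so they stand for those selected cells rather than for a whole depot. The methods place RNA extraction in growth medium before confluence, but the description given with the data mentions adipogenic induction first, so the culture stage rests on the methods.

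Wnt proteins are secreted lipid-modified ligands that bind Frizzled receptors together with a co-receptor. With LRP5 or LRP6 the signal stabilizes β-catenin, which enters the nucleus and acts through TCF and LEF factors, whereas ROR and RYK receptors carry signals that do not need β-catenin. R-spondins and LGR receptors strengthen the signal by keeping Frizzled receptors on the cell surface, and SFRP and DKK proteins weaken it outside the cell. In preadipocytes β-catenin signaling is known to hold back adipocyte differentiation, and in muscle Wnt signals act on satellite cells and their progeny.

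Between 19654917 and 29308882 reads were counted per clone. Levels are given as CPM (counts divided by TMM-scaled library size), which compares one gene between clones, or as TPM (scaled by gene length as well), which compares genes. At this depth 3 counts were worth 0.0981 to 0.165 CPM, a floor that covers counting error only. Of the stromal markers, read for the preadipocyte label, 8 of 8 had more than 3 counts in every IMF clone. In every SF clone 7 of 8 did, *CD34* being the exception. All 4 leukocyte and all 3 mural markers measured also had more than 3 counts in every clone of both depots. This bar therefore cannot tell cell types apart. The summed level of the stromal list was 3930 to 4690 TPM in IMF and 7650 to 9850 TPM in SF. Most of it came from *COL1A1*, with means of 3430 TPM in IMF and 8240 TPM in SF. The stromal markers were mixed in direction, since *COL1A1* was past both thresholds and lower in IMF (log2 fold change -1.28, adjusted p = 0.000308) and *CD34* was past both and higher. Markers of other cell types moved with the depot. All 8 skeletal muscle markers had more than 3 counts in every IMF clone, with a summed level of 442 to 593 TPM against 0.438 to 17.4 TPM in SF, where *MYOD1*, *MYOG*, *CDH15* and *ACTA1* had at most 3 counts in any clone. All 7 endothelial markers did so too, at 112 to 135 TPM against 0.629 to 1.12 TPM in SF, where *KDR*, *SELE* and *SELP* had at most 3 counts. The 2 adipocyte markers measured, *FABP4* and *PLIN1*, summed to 21.9 to 32.3 TPM in IMF and 1.91 to 2.81 TPM in SF, but they differed in direction, with 25.7 and 0.448 TPM for *FABP4* and 1.44 and 1.81 TPM for *PLIN1* in the mean. The 3 mural markers summed to 766 to 941 TPM in IMF and 948 to 5130 TPM in SF, and the 4 leukocyte markers to 10.9 to 22.2 and 25.5 to 36.1 TPM. Most of the mural sum came from *ACTA2* (means of 858 TPM in IMF and 2650 TPM in SF), whose clones overlapped between the depots. The mural and leukocyte lists were mixed as well, since *MYH11* (log2 fold change 1.59) and *CD14* (1.48) were past both thresholds and higher in IMF, and *CSPG4* (-1.71), *ACTA2* (-1.68) and *CD3E* (-1.33) lower. The part of these cell-type markers in the Wnt results below was not tested, and in bulk RNA fewer cells of a type and less RNA per cell cannot be told apart.

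All 52 Wnt genes passed the filter of at least 20 counts in total, and 13 of them were past both thresholds between IMF and SF, which were set at 0.05 for the adjusted p and at 1 for the log2 fold change in either direction (edgeR's quasi-likelihood test, Benjamini-Hochberg adjustment over all 18339 genes). Over all genes tested the share was 8.82%. Of the 13 genes, 3 were higher in the IMF clones (*SFRP4*, *SFRP5* and *WNT2B*) and 10 were lower (*WNT2*, *WNT5A*, *WNT11*, *WNT10B*, *FZD7*, *FZD1*, *ROR2*, *SFRP2*, *DKK3* and *APCDD1L*), where the shares over all genes were 4.78% higher and 4.04% lower. Another 7 of the 52 Wnt genes had an adjusted p-value under 0.05 with a smaller change, 2 higher and 5 lower in IMF. Of all 18339 genes, 3106 were in this class (1762 higher and 1344 lower), a larger share than among the Wnt genes. With the 13 past both thresholds, 20 of 52 Wnt genes (38.5%) had an adjusted p under 0.05, 5 higher and 15 lower. Over all genes the share was 25.8%, with 14.4% higher and 11.4% lower. The clones of the depots did not overlap in 21 Wnt genes (40.4%, against 32.1% of all genes), 8 with IMF higher and 13 with SF higher, where the shares over all genes were 18% and 14.1%. Among the 21 were 12 of the 13 past both thresholds. The median log2 fold change was -0.26 over the 52 genes and -0.03 over all genes.

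**Figure D1:**
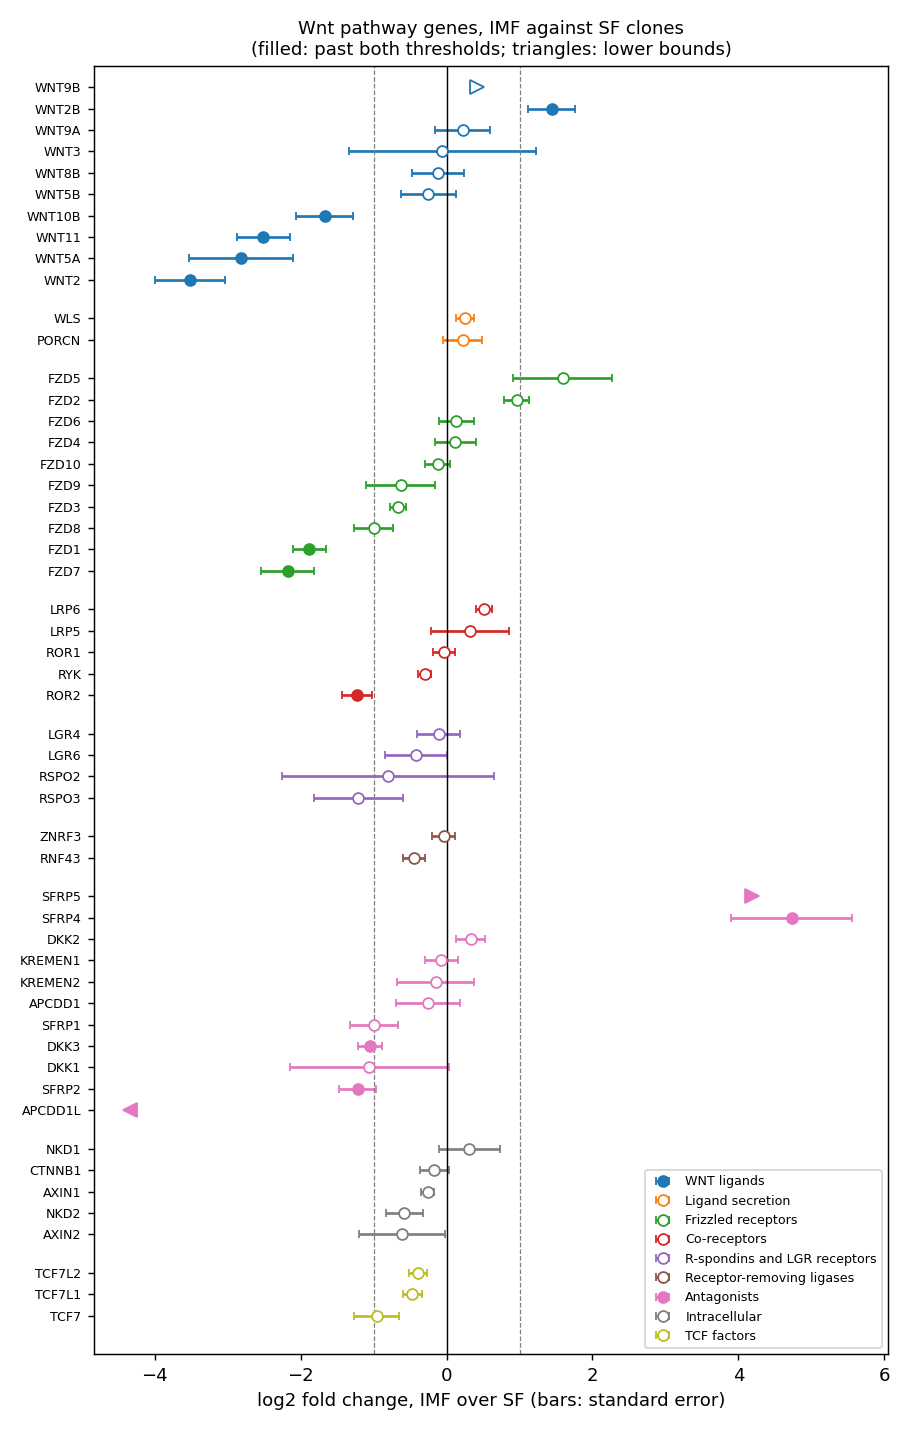
Log2 fold change of IMF over SF for the 52 Wnt genes, grouped by role, with the standard error (SE) as bars; dashed lines mark a log2 fold change of 1 in either direction, filled symbols are past both thresholds, and triangles are lower bounds for genes with at most 3 counts in every clone of one depot. The filled symbols on the left are 4 ligands, *FZD1*, *FZD7*, *ROR2*, *SFRP2*, *DKK3* and *APCDD1L*, and those on the right are *WNT2B*, *SFRP4* and *SFRP5*.

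Of the ligands, 5 of 10 were past both thresholds (50.0%, against 8.82% of all genes), 4 of them lower in the IMF clones. *WNT2*, a ligand of the β-catenin branch, measured 0.144, 0.327, 0.453 and 0.381 CPM in IMF1 to IMF4 and 3.90, 1.5, 5.15 and 4.63 CPM in SF1 to SF4. Every SF clone was above every IMF clone, and the IMF clones had from 3 to 10 counts. The level in SF was 11.4-fold that in IMF (log2 fold change -3.52, SE 0.48, adjusted p = 0.00123). *WNT2* lies on chromosome 4 (51106080 to 51149997 in ARS-UCD2.0).

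*WNT11*, a ligand known for signaling without β-catenin, had 2.64, 2.81, 2.99 and 3.33 CPM in the IMF clones in order of their number and 12.7, 10.7, 31.5 and 12 CPM in the SF clones. SF3 stood far above the other SF clones, but all 4 lay above the IMF clones, and the level in SF was 5.69-fold that in IMF (log2 fold change -2.51, SE 0.36, adjusted p = 0.00165). *WNT5A*, the main ligand of the ROR receptors, was nearly constant in IMF at 4.32, 4.09, 4.22 and 4.33 CPM and ran over a wide range in SF at 76.6, 6.26, 13.1 and 23.6 CPM. All SF clones were above IMF, with SF2 close to the IMF level and SF1 far above it, and the level in SF was 7.04-fold that in IMF (log2 fold change -2.82, SE 0.71, adjusted p = 0.0202). Without SF1 the log2 fold change was -1.76 (adjusted p = 0.0134). This call ended with limma-voom (adjusted p = 0.13), when clone number entered as a block (0.0529), and without any 1 of the 4 IMF clones (0.0512 to 0.0575). A long non-coding RNA gene overlaps *WNT5A* in the RefSeq list and had 28 to 132 counts per clone.

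*WNT10B*, a ligand known to hold back adipogenesis, had 0.960, 1.08, 0.725 and 1.19 CPM in the IMF clones and 2.31, 4.45, 1.54 and 4.35 CPM in the SF clones. No clone overlapped, although SF3 lay close to the highest IMF clone. Its log2 fold change was -1.67 (SE 0.39, adjusted p = 0.0142), and the adjusted p was 0.0546 with limma-voom. *WNT2B*, a ligand of the β-catenin branch, was higher in IMF, with 5.23, 4.45, 4.31 and 4.85 CPM against 2.05, 2.55, 0.852 and 1.49 CPM in SF. The lowest IMF clone exceeded the highest SF clone, and the level was 2.71-fold higher (log2 fold change 1.44, SE 0.32, adjusted p = 0.0112). The gene overlaps *ST7L*, which had 265 to 458 counts per clone, in the RefSeq list. The close paralogs *WNT2* and *WNT2B* thus stood in opposite order, at 0.241 ± 0.102 and 3.76 ± 0.448 TPM in IMF and at 2.73 ± 1.14 and 1.38 ± 0.653 TPM in SF (SD, n = 4 each).

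*WNT5B* was the ligand with the highest mean TPM in both depots, and led in every clone but SF3, where *WNT11* had 10.8 TPM against 8.03 TPM. *WNT5B* made up 54.4% to 58.5% of the summed ligand TPM in an IMF clone and 28.2% to 48.4% in an SF clone. It had 15.4, 14.6, 15.5 and 13.7 CPM in IMF and 35.8, 10.5, 10.9 and 13.2 CPM in SF, so that SF1 lay above all IMF clones and the other SF clones below them. The log2 fold change of -0.25 (SE 0.38, adjusted p = 0.68) turned to 0.36 without SF1 (adjusted p = 0.0368). The gene overlaps *FBXL14*, which had 949 to 1625 counts per clone, in the RefSeq list. *WNT9A* and *WNT8B* had mean levels under 1 TPM in both depots, with adjusted p-values of 0.718 and 0.838. *WNT3* and *WNT9B*, neighbours on chromosome 19 at a distance of 45525 bases, had at most 10 counts in any clone, and all of their counts were even numbers, as in 51.4% of the 1409 genes with a total of 20 to 60 counts. The summed ligand level was 16.9 to 20.2 TPM in IMF and 20.8 to 51.2 TPM in SF, the highest in SF1.

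The 2 genes for ligand export were not past the test. *WLS*, the carrier that brings Wnt proteins to the cell surface, had 45.9, 49.9, 46.5 and 44.3 CPM in the IMF clones and 29.8, 44.1, 40.5 and 42.5 CPM in the SF clones. A small gap separated the groups, and the difference was not past the test (log2 fold change 0.25, SE 0.12, adjusted p = 0.173). *PORCN*, the enzyme that adds the lipid to Wnt proteins, had 3.02, 2.52, 2.81 and 2.38 CPM in IMF and 3.18, 1.35, 2.31 and 2.37 CPM in SF. The groups overlapped, and the log2 fold change was 0.22 (SE 0.27, adjusted p = 0.6).

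**Figure D2:**
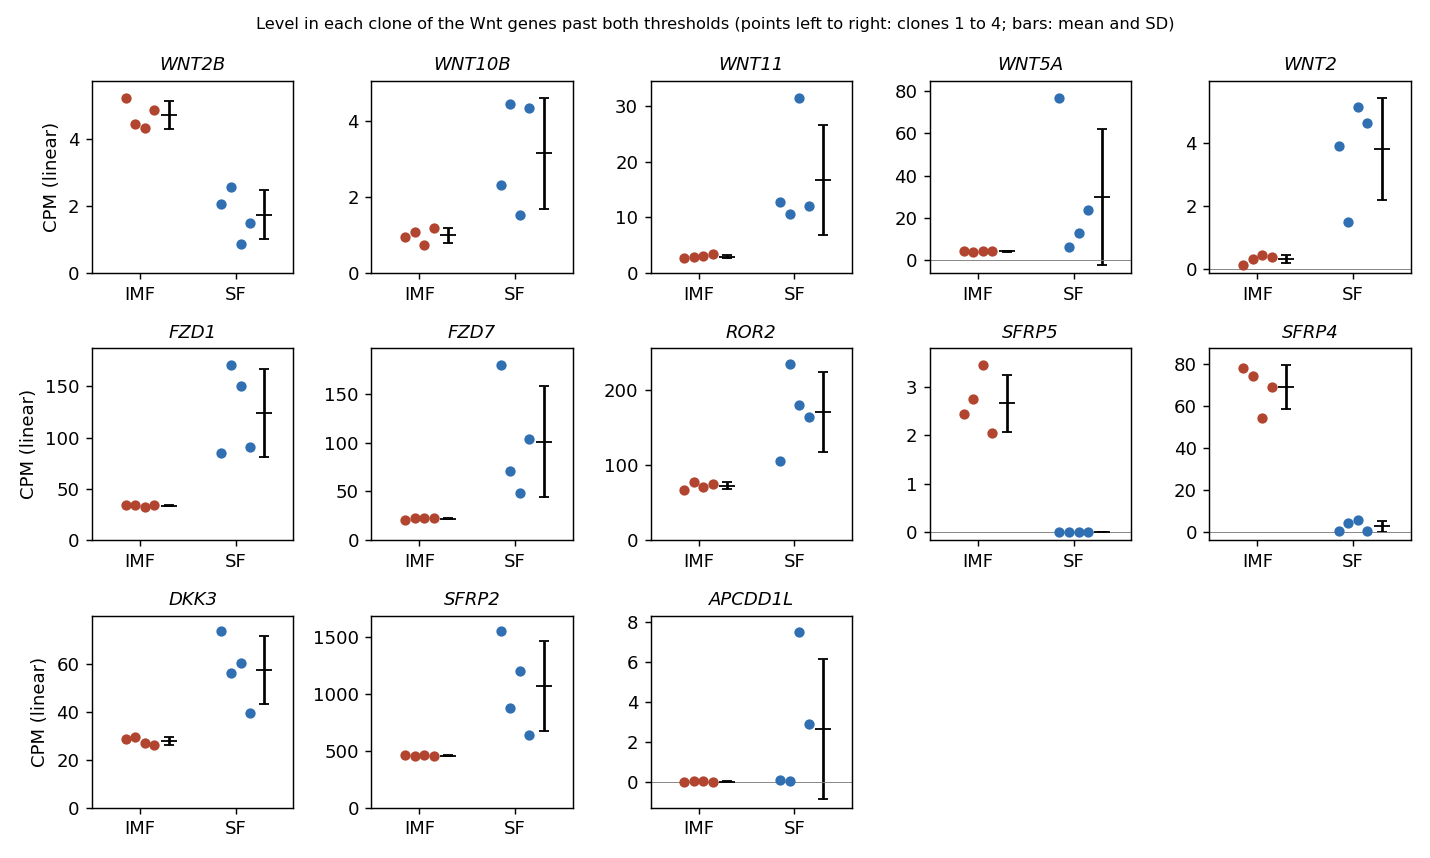
CPM on a linear axis in each IMF and SF clone for the 13 Wnt genes past both thresholds, with points for clones 1 to 4 from left to right and bars for the mean and SD (n = 4). The IMF points of most panels lie close together, for example 454 to 460 CPM for *SFRP2*, while the SF points spread widely, for example 6.26 to 76.6 CPM for *WNT5A*.

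Among the Frizzled receptors, the seven-pass receptors that bind Wnt ligands, 2 of 10 were past both thresholds, *FZD7* and *FZD1*, each lower in IMF. *FZD7* had 21.2, 22.5, 22.7 and 22.6 CPM in IMF1 to IMF4 and 179, 71.3, 48.5 and 104 CPM in SF1 to SF4. All SF clones lay above the IMF clones, SF1 the most, and the level in SF was 4.53-fold that in IMF (log2 fold change -2.18, SE 0.36, adjusted p = 0.00316). *FZD1* had 33.9, 34.0, 32.8 and 34.3 CPM in IMF and 85.2, 171, 150 and 91.2 CPM in SF. No overlap was seen, with SF2 and SF3 the highest, and the level in SF was 3.69-fold that in IMF (log2 fold change -1.88, SE 0.23, adjusted p = 0.000675). Both genes stayed past the thresholds in all 16 alternative settings. *FZD7* is on chromosome 2 (90571270 to 90573476) and *FZD1* on chromosome 4 (8665915 to 8670065).

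*FZD8* had 46.9, 47.8, 48.8 and 47.9 CPM in IMF and 45.1, 105, 125 and 108 CPM in SF. SF1 lay below all IMF clones and the other SF clones lay above them, so that the groups overlapped. Before rounding, the log2 fold change of -1.0 (SE 0.27, adjusted p = 0.0266) fell just short of the fold threshold. It was -1.23 without SF1, past both thresholds, whereas the adjusted p was over 0.05 in 8 alternatives (at most 0.0637), which were the block and the removal of any other clone. DESeq2, RLE size factors and both other filters put it past both thresholds. *FZD2* moved the other way, with 9.50, 6.97, 6.71 and 6.38 CPM in IMF and 4.11, 4.05, 3.69 and 3.31 CPM in SF. The groups were separate, and the log2 fold change of 0.96 (SE 0.17, adjusted p = 0.00394) was also just short of the fold threshold. It reached 1.10 with total counts alone, 1.03 without IMF4 and 1.0 without SF1, each past it. *FZD3* was lower in IMF with a smaller change, at 13.6, 13.0, 13.7 and 13.8 CPM against 19.6, 25.8, 21.7 and 18.7 CPM in SF, separate groups and a log2 fold change of -0.66 (SE 0.11, adjusted p = 0.00288). *FZD5* had 5.66 to 7.13 CPM in IMF and 0.205 to 4.55 CPM in SF, separate groups with an uneven SF group (log2 fold change 1.59, SE 0.68, adjusted p = 0.121). It was past both thresholds without SF2 (2.36, adjusted p = 0.0336) and with limma-voom (2.23, adjusted p = 0.0303). *FZD4*, *FZD6*, *FZD9* and *FZD10* had overlapping groups and adjusted p-values from 0.366 to 0.788, and *FZD4* had 0.0331 without SF1 (log2 fold change 0.49).

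Per length, the order of the Frizzled receptors differed between the depots. In the IMF clones *FZD8* led with 22.4 ± 1.69 TPM, before *FZD10* (18.5 ± 2.30), *FZD4* (17.0 ± 1.26), *FZD7* (16.8 ± 1.13) and *FZD1* (13.6 ± 0.787 TPM; SD, n = 4), and *FZD10*, *FZD4* and *FZD7* were within their spread of each other. In the SF clones *FZD7* led with 73.9 ± 40.2 TPM, before *FZD1* (50.4 ± 21.1) and *FZD8* (44.5 ± 17.4 TPM), which did not differ from it beyond the spread. *FZD7* made up 15.6% to 16.7% of the summed Frizzled TPM in an IMF clone and 18.3% to 54.4% in an SF clone, the most in SF1. The summed level was 95.9 to 111 TPM in IMF and 187 to 241 TPM in SF.

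**Figure D3:**
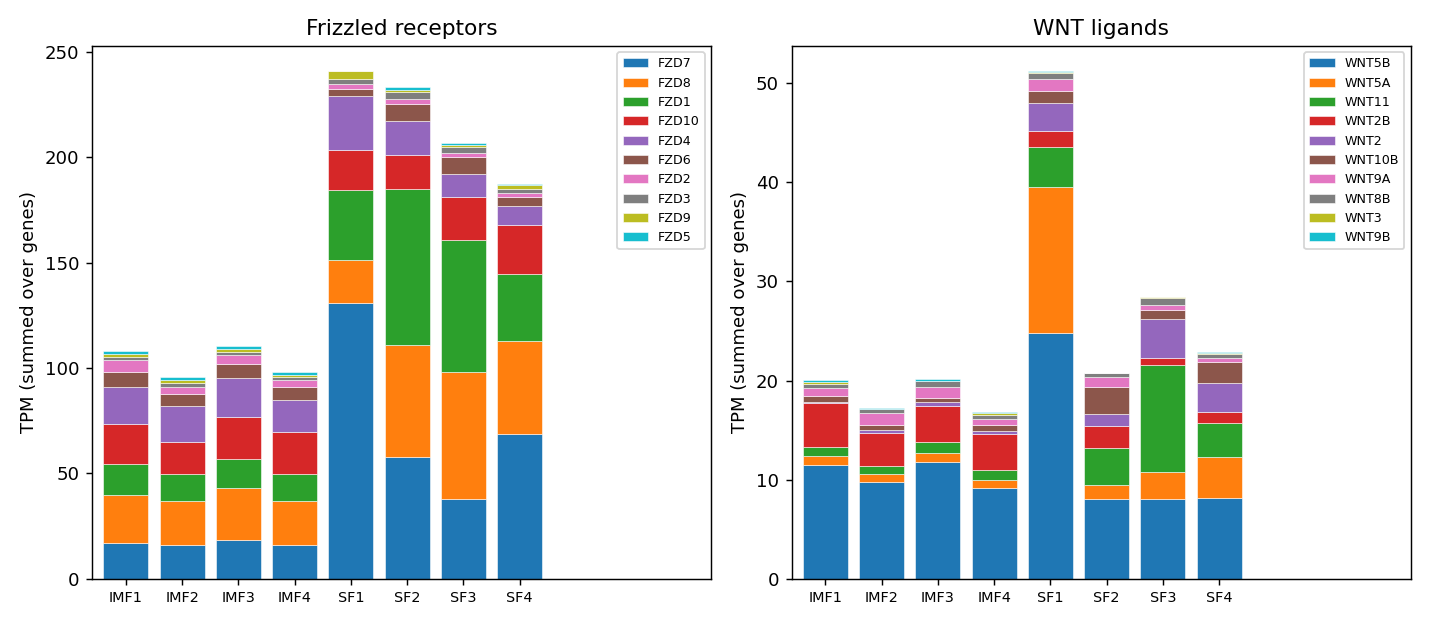
TPM of the 10 Frizzled receptors (left) and the 10 WNT ligands (right) stacked for each IMF and SF clone, with 1 colour per gene. The Frizzled bars reach 95.9 to 111 TPM in the IMF clones and 187 to 241 TPM in the SF clones, and the ligand bar of SF1 reaches 51.2 TPM.

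Of the co-receptors, *ROR2*, a receptor tyrosine kinase family member that binds WNT5A, was lower in IMF, with 67.5, 78.1, 71.5 and 74.5 CPM against 105, 235, 180 and 164 CPM in SF. No clones overlapped, with SF1 the lowest SF clone, and the level in SF was 2.35-fold that in IMF (log2 fold change -1.23, SE 0.21, adjusted p = 0.00384). The related *ROR1* had 10.8 to 11.1 CPM in IMF and 8.52 to 14.3 CPM in SF, with overlapping groups and a log2 fold change of -0.03 (SE 0.15, adjusted p = 0.92). *RYK*, a receptor of the same branch, had 55.6, 55.8, 50.2 and 48.8 CPM in IMF and 70.0, 58.4, 59.1 and 70.9 CPM in SF. The groups were separate by a small gap, and the difference was small (log2 fold change -0.30, SE 0.09, adjusted p = 0.047). The adjusted p was over 0.05 in 8 of 16 alternatives, with 0.305 for total counts alone, 0.0915 with the block and 0.0581 to 0.117 without SF1, SF4 or any 1 of the IMF clones. *RYK* had the highest TPM of the co-receptors in IMF (39.5 ± 3.95, against 28.5 ± 1.16 for *ROR2*), and *ROR2* in SF (67.0 ± 25.3, against 47.6 ± 2.30 for *RYK*), where the spread of *ROR2* covered the gap.

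The co-receptors of the β-catenin branch were not past both thresholds. *LRP6* was higher in IMF, with 27.2, 32.1, 32.0 and 31.1 CPM against 26.2, 20.4, 20.2 and 19.1 CPM in SF, with SF1 just under IMF1 (log2 fold change 0.51, SE 0.11, adjusted p = 0.0122, and 0.0528 without IMF3). *LRP5* was nearly constant in IMF at 25.3, 25.2, 25.8 and 25.9 CPM, and had 48.6, 6.56, 13.3 and 13.6 CPM in SF. SF1 lay above all IMF clones and the other SF clones below them, and the log2 fold change of 0.32 (SE 0.53, adjusted p = 0.704) became 1.19 without SF1 (adjusted p = 0.00853), past both thresholds.

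The 4 R-spondin and LGR genes had adjusted p-values from 0.187 to 0.828. *RSPO3*, a secreted enhancer of Wnt signaling, had 18.1, 19.8, 17.0 and 17.1 CPM in IMF and 89.4, 35.3, 6.09 and 36.6 CPM in SF. SF3 lay below all IMF clones and the other SF clones above them. The log2 fold change was -1.21 (SE 0.61, adjusted p = 0.187), and it ranged with the clones kept, from -0.53 without SF1 (adjusted p = 0.509) to -1.62 without SF3 (adjusted p = 0.0121, past both thresholds). It was -0.64 with limma-voom (adjusted p = 0.552) and -0.76 with the block (adjusted p = 0.424). *LGR4*, an R-spondin receptor, had 61.6, 64.9, 65.5 and 67.3 CPM in IMF and 31.0, 103, 69.7 and 75.6 CPM in SF, with SF1 the lowest of all clones and overlapping groups (log2 fold change -0.11, SE 0.30, adjusted p = 0.828). *LGR6*, of the same receptor family, varied within IMF as well, with 9.16, 24.5, 6.48 and 18.8 CPM against 24.0, 11.4, 17.1 and 27.0 CPM in SF (log2 fold change -0.42, SE 0.43, adjusted p = 0.523). *RSPO2* had at most 6 counts in any clone, all even numbers.

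*RNF43* and *ZNRF3*, ligases that remove Frizzled receptors from the cell surface and are themselves known Wnt targets, had overlapping groups. *RNF43* had 36.5, 27.9, 38.2 and 26.2 CPM in IMF and 44.7, 36.5, 46.9 and 47.3 CPM in SF (log2 fold change -0.45, SE 0.15, adjusted p = 0.054). The adjusted p of *RNF43* was under 0.05 in 8 alternatives (0.0207 to 0.0498), among them the removal of IMF3 or SF2. *ZNRF3* had 6.24, 6.74, 7.62 and 7.85 CPM in IMF and 8.98, 7.31, 7.35 and 5.57 CPM in SF (log2 fold change -0.04, SE 0.16, adjusted p = 0.894). *ZNRF3* lies 9934 bases from *KREMEN1* on chromosome 17.

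Of the 11 antagonists, 2 were higher and 3 lower in IMF past both thresholds (45.5% in all, against 8.82% of all genes). *SFRP2*, a secreted Frizzled-related protein that binds Wnt ligands, had 454 to 460 CPM in the 4 IMF clones and 1550, 874, 1200 and 641 CPM in SF. The IMF clones were nearly identical, with an SD of 0.613% of the mean, and every SF clone lay above them. The level in SF was 2.33-fold that in IMF (log2 fold change -1.22, SE 0.25, adjusted p = 0.00786), and the log2 fold change was -0.98 without SF1, just short of the fold threshold. *SFRP2* stood above 98.6% of the genes tested by TPM in IMF and above 99.3% in SF, and made up 67.6% to 72.9% of the summed antagonist TPM in an IMF clone and 82.8% to 88.5% in an SF clone.

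*SFRP4*, of the same family, showed the opposite pattern, with 78.3, 74.4, 54.3 and 69.1 CPM in IMF and 0.0513, 4.20, 5.48 and 0.386 CPM in SF. All IMF clones lay far above the SF clones, and SF1 had 1 count against 135 in SF3. The level in IMF was 26.5-fold higher (log2 fold change 4.73, SE 0.83, adjusted p = 0.00418), between 4.33 and 6.00 on the log2 scale over all alternatives and at 5.43 without SF3. *SFRP5* was found in IMF alone, with 51, 84, 76 and 43 counts (2.45, 2.75, 3.45 and 2.05 CPM) against 0 in all 4 SF clones, where 3 counts would be at most 0.165 CPM. Taken against 3 counts in each SF clone, it was at least 18.1-fold higher in IMF (adjusted p = 0.000437). *SFRP4* is on chromosome 4 (49731830 to 49742113) and *SFRP5* on chromosome 26 (18914372 to 18919213). *SFRP1* varied within IMF, at 113, 34.7, 63.5 and 58.1 CPM against 181, 109, 125 and 122 CPM in SF, with IMF1 inside the SF range. Its log2 fold change of -1.0 was not past the test (SE 0.33, adjusted p = 0.0591), whereas it was -1.37 without IMF1 (adjusted p = 0.0107). DESeq2, limma-voom and the block by clone number also called it, with adjusted p-values of 0.0167, 0.0407 and 0.0125.

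*DKK3*, a divergent member of the Dickkopf family, had 28.4, 29.6, 27.0 and 25.9 CPM in IMF and 73.7, 55.9, 60.1 and 39.5 CPM in SF. The groups were separate, and the level in SF was 2.07-fold that in IMF (log2 fold change -1.05, SE 0.17, adjusted p = 0.00278). Because this change is close to the fold threshold, it fell short at -0.91 with total counts alone and at -0.90 without SF1. *DKK2* had overlapping groups, with 16.9 to 20.4 CPM in IMF and 10.3 to 19.5 CPM in SF (log2 fold change 0.33, SE 0.20, adjusted p = 0.266). *DKK1* had 10, 4, 4 and 0 counts in IMF and 10, 17, 2 and 4 counts in SF. Its log2 fold change was -1.06 with an SE of 1.09 (adjusted p = 0.518), and it ranged from -1.92 to -0.44 with 1 clone left out. These data did not resolve a difference in *DKK1*, and the parts of depth and of the spread among clones were not tested. The differences between the Dickkopf genes were not tested. *KREMEN1* and *KREMEN2*, receptors for Dickkopf proteins, had overlapping groups with adjusted p-values of 0.846 and 0.873. *APCDD1L*, a relative of the membrane antagonist gene *APCDD1*, was found mainly in part of the SF clones, with 0.103, 0.0501, 7.51 and 2.92 CPM there and at most 0.0654 CPM in an IMF clone, so the groups overlapped. Its level in SF rests on SF3 and SF4, since SF1 and SF2 had 2 counts and 1 count. Taken as the SF mean against 3 counts in each IMF clone, it was at least 20.3-fold lower in IMF (adjusted p = 0.0296). That mean came mostly from SF3, and the bound was not computed without SF3. The fitted log2 fold change moved from -6.19 to -4.86 without SF3 and to -6.97 without IMF2. This was a call that ended in 8 of the 15 alternatives that gave a value, with the highest adjusted p of 0.303 from limma-voom, 0.0569 with the block and 0.0540 to 0.0755 with IMF1, IMF2, IMF3, IMF4, SF3 or SF4 left out. *APCDD1* itself had 1.52 to 2.62 CPM in IMF and 1.25 to 4.62 CPM in SF (adjusted p = 0.708).

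The 5 intracellular genes had adjusted p-values from 0.0672 to 0.644. *CTNNB1*, which encodes β-catenin, had 318, 344, 320 and 310 CPM in IMF and 266, 349, 530 and 303 CPM in SF. The groups overlapped, SF3 being the highest, and the log2 fold change was -0.17 (SE 0.20, adjusted p = 0.596), or 0.05 without SF3. *AXIN1*, a scaffold of the complex that degrades β-catenin, had 39.0, 35.5, 37.5 and 34.8 CPM in IMF and 51.0, 42.1, 43.0 and 39.6 CPM in SF, separate groups by a small gap (log2 fold change -0.26, SE 0.09, adjusted p = 0.0672, and 0.0472 without SF4 or 0.0332 with DESeq2). *NKD2*, a feedback inhibitor that binds Dishevelled, had 6.96, 5.63, 8.52 and 7.14 CPM in IMF and 13.3, 7.21, 13.8 and 7.66 CPM in SF, with overlapping groups (log2 fold change -0.58, SE 0.25, adjusted p = 0.129).

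*AXIN2* and *NKD1* are feedback genes widely used as readouts of β-catenin signaling. *AXIN2* was low in both depots, with 0.384 to 1.45 CPM in IMF and 0.719 to 3.17 CPM in SF, SF3 being the highest (log2 fold change -0.61, SE 0.59, adjusted p = 0.491, and 0.06 without SF3). *NKD1* varied more among the IMF clones (2.94 to 16.1 CPM) than among the SF clones (6.57 to 9.37 CPM), with overlapping groups (log2 fold change 0.31, SE 0.42, adjusted p = 0.644, and -0.03 without IMF1). These data did not resolve a difference between the depots in either gene.

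Of the TCF factors, which bind DNA with β-catenin, 2 of 3 had an adjusted p under 0.05, both lower in IMF by less than the fold threshold. *TCF7L1* had 10.1, 9.03, 8.25 and 10.1 CPM in IMF and 15.3, 13.0, 13.0 and 10.9 CPM in SF, separate groups with a log2 fold change of -0.47 (SE 0.13, adjusted p = 0.0264). *TCF7L2* had 35.3, 36.0, 38.9 and 36.4 CPM in IMF and 43.0, 55.4, 54.3 and 38.8 CPM in SF, with SF4 inside the IMF range (log2 fold change -0.39, SE 0.12, adjusted p = 0.047). The adjusted p of *TCF7L1* was 0.141 with total counts alone and 0.0564 with the block, and that of *TCF7L2* was 0.301, 0.0627 and, with limma-voom, 0.0509. It was also over 0.05 for *TCF7L1* without IMF2, IMF3 or SF2 (0.0504 to 0.072) and for *TCF7L2* without SF2, SF3 or any 1 of the IMF clones (0.0651 to 0.105). *TCF7* had 4.51, 5.23, 6.21 and 3.62 CPM in IMF and 4.72, 10.5, 13.6 and 9.31 CPM in SF, with SF1 inside the IMF range. It was not past the test (log2 fold change -0.96, SE 0.31, adjusted p = 0.0528), but it was without SF1 (-1.19, adjusted p = 0.00552), and with DESeq2 the adjusted p was 0.0153 at a log2 fold change of -0.97.

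Beyond the 52 genes, 50 other genes of the pathway (modulators, Dishevelled and destruction complex genes, nuclear cofactors, polarity genes and targets) were read from the same fit, of which 5 were higher and 7 lower in IMF past both thresholds (24.0%, against 8.82% of all genes) with a median log2 fold change of -0.14. An adjusted p under 0.05 was found for 25 (50.0%, against 25.8% of all genes), and groups that did not overlap for 31 (62.0%, against 32.1%). *NOTUM*, an enzyme that inactivates Wnt proteins by removing their lipid, had 35.0 to 40.3 CPM in IMF and 2.52 to 10.6 CPM in SF, 6.53-fold higher in IMF (log2 fold change 2.71, SE 0.39, adjusted p = 0.00153). The known β-catenin targets *MYC* and *CCND1* moved in opposite directions. *MYC* had 72.2 to 79.5 CPM in IMF and 15.9 to 39.0 CPM in SF (log2 fold change 1.21, adjusted p = 0.00874, and 0.99 without SF2). *CCND1* had 49.1 to 59.8 CPM in IMF and 65.7 to 175 CPM in SF (log2 fold change -1.10, adjusted p = 0.0175, and -0.82 without SF4 or -0.94 with total counts alone).

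Lower in IMF were also *SERPINF1*, a secreted protein that binds LRP6 (log2 fold change -1.89, adjusted p = 0.00129), and *GPC4*, a cell-surface glypican (-1.38, adjusted p = 4.31e-05). The groups did not overlap in either. The corepressor genes *TLE1* and *TLE2* moved in opposite directions, with log2 fold changes of 1.31 (adjusted p = 0.00298) and -1.73 (adjusted p = 0.000727). *APC2*, a relative of the destruction complex gene *APC*, was lower in IMF (-1.27, adjusted p = 0.0035), as was *CELSR3*, a polarity cadherin (-1.41, adjusted p = 0.00378). The phospholipase genes *PLCB4* (3.98, adjusted p = 0.00831) and *PLCB1* (2.03, adjusted p = 0.0412) were higher in IMF, with 5.95 for *PLCB4* without SF3 and 3.14 for *PLCB1* without SF2, and *LRP4*, a receptor that binds Wnt modulators, was lower (-1.48, adjusted p = 0.0491). *LRP4* had 101 CPM in SF2 against 20.9 to 40.3 CPM in the other SF clones, and its log2 fold change was -0.77 without SF2. The adjusted p of *LRP4* was over 0.05 with limma-voom (0.0937), with total counts alone (0.0682), with the block (0.106), without SF3 (0.0701) and without any 1 of the IMF clones (0.0982 to 0.104), and that of *PLCB1* was 0.0657 to 0.0985 without SF1, SF3, SF4 or any 1 of the IMF clones.

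The clones varied more among themselves in SF than in IMF, in the Wnt genes as in most genes. In the 31 Wnt genes that averaged 100 counts or more in each depot, the median coefficient of variation (CV) was 5.81% in IMF and 31.2% in SF, and it was larger in SF in 27 genes (87.1%). Over 10948 genes with such counts the medians were 6.6% and 13.4%, and the CV was larger in SF in 74.7%. A CV over 25 percent was found in 17 of the 31 genes in SF and in 3 in IMF, against 20.2% and 10.6% of all such genes. In 9 of the 31 genes the IMF clones differed by no more than counting error, against 0 in SF, where the shares over all such genes were 19.2% and 6.22%. Among the 31 genes, the largest CVs in SF were those of *LRP5* (92.6%, against 1.40% in IMF), *RSPO3* (82.9%, against 7.28%) and *WNT5B* (69.3%, against 5.52%). The reverse was seen in *LGR6* (56.9% in IMF, 35.3% in SF), *NKD1* (55.0% and 14.3%), *SFRP1* (48.9% and 23.8%) and *RNF43* (18.8% and 11.4%).

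**Figure D4:**
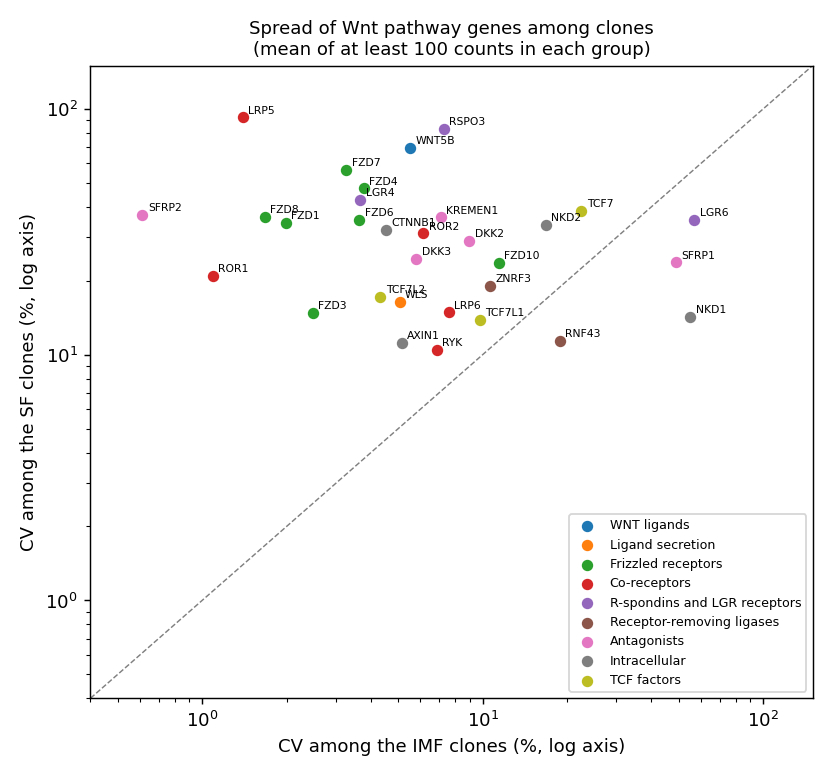
Coefficient of variation among the 4 SF clones (vertical, log axis) against that among the 4 IMF clones (horizontal, log axis) for the 31 Wnt genes that averaged 100 counts or more in each depot, coloured by role, with equality as the dashed line. The points of 27 genes lie above the line, and *LGR6*, *NKD1*, *SFRP1* and *RNF43* lie below it.

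Among the SF clones, SF1 most often held the highest value. Of the 31 genes, 13 (41.9%) had their highest SF value in SF1 and 9 (29.0%) their lowest, where over all such genes the shares were 27.5% and 36.6%. Over all 52 genes, SF1 was the highest SF clone in, among others, *WNT5A*, *WNT5B*, *FZD7*, *RSPO3*, *LRP5*, *SFRP1*, *SFRP2* and *DKK3*, and the lowest in, among others, *FZD1*, *FZD5*, *FZD8*, *ROR2*, *LGR4* and *SFRP4*. SF3 was the highest in *FZD6*, *FZD8*, *NKD2*, *SFRP4*, *WNT8B*, *WNT2*, *WNT11*, *CTNNB1*, *AXIN2*, *TCF7* and *APCDD1L*. The SF clones thus did not share one order across the ligands, receptors and antagonists, and a given clone could hold the highest level of one Frizzled receptor and the lowest of another.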

How the data were processed

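Single-cell preadipocyte clones of IMF and SF (4 each) were compared, with groups and clone numbers from the sample titles. Per the methods, the authors trimmed reads, aligned them to ARS-UCD2.0 and quantified TPM, but the clone columns of the deposited table hold whole-number read counts with unequal totals and were used as raw counts. The methods name HISAT2 as aligner, the submitters' processing notes list STAR 2.7.11a, and both name featureCounts 2.0.2. The methods call the kit non-stranded and the labels describe a strand-marking step, so reads of overlapping genes may be shared. The deposited table also holds gene length in bases, the authors' group means (signal) and their DESeq2 result (a scaled mean as signal, log2 fold change, standard error and test statistic as score, p-value), none of which was used except the length, for TPM.

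A row with no gene name (0.0148% to 0.0209% of counts) was left out. Of 18871 genes, the 18339 that reached 20 counts in total entered edgeR 4.0.16 under R 4.3.3 (TMM, two-sided quasi-likelihood test, Benjamini-Hochberg adjustment). Clones are the replicates. The study describes each as from an SVF sample of its depot. Fold changes use edgeR's default prior count. Against a depot with at most 3 counts in every clone, the fold is a bound against 3 counts per clone. DESeq2 1.42.0 and limma-voom (limma 3.58.1) were among the 16 alternatives. Tables and plots were made in Python 3.11.15.

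The genes and lists were chosen with earlier results of these data known, so no list was tested as a set. Named are all Wnt genes past a threshold, the 3 with the highest TPM per role, the other pathway genes past both thresholds (at most 12), and, for their family or their clone spread, some chosen after their values were seen. RefSeq (ARS-UCD2.0) listed all 52 symbols. Promoter and protein sequences were not analysed here. Over all genes compared, clones of one group differed beyond counting error in every pair (chi-square per degree of freedom 53.9 to 125 in IMF and 41.2 to 114 in SF). The median chi-square was 3.47 to 7.93 times its expected value in IMF and 6.64 to 16.3 times in SF. For the Wnt genes compared, the mean chi-square was 10.1 to 37.6 in IMF and 77.4 to 298 in SF. With 4 clones against 4, each p-value sets the depot difference against the spread among these clones. The animal of each clone was not given, so clone and steer cannot be told apart in that spread. Clones that share a steer would not be independent.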

Additional observations from a re-analysis of the deposited data

Results flagged for a closer look

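Within each depot, the highest and the lowest clone of each Wnt gene with more than 3 counts in at least 1 clone of that depot were compared with the nearest of the other 3 by Dixon's ratio. This left out *APCDD1L* in IMF and *SFRP5* and *WNT9B* in SF. Of 101 groups of 4, 5 had a clone past the limit, where chance gives about 1 in 20. *LRP5* had 48.6 CPM in SF1, against 6.56 to 13.6 CPM in the other SF clones, and *WNT5B* had 35.8 CPM in the same clone, against 10.5 to 13.2 CPM. *WNT11* had 31.5 CPM in SF3, against 10.7 to 12.7 CPM in the others. In IMF, *FZD5* had 7.13 CPM in IMF2, against 5.66 to 5.85 CPM, and *FZD7* had 21.2 CPM in IMF1, against 22.5 to 22.7 CPM, a gap of small size.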

How the results depend on the processing

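Over 16 alternative settings, 11 to 15 of the 52 Wnt genes were past both thresholds, of which 3 to 5 were higher and 8 to 12 lower in IMF. The number higher moved from 3 to 5 without SF1, and with 1 clone left out it ranged from 3 to 5. Total counts alone put the median over all genes at 0.12 on the log2 scale in place of -0.03; there 66.7% of all calls were higher in IMF in place of 54.2%, and 4 Wnt genes were higher and 9 lower. Of the 13 calls, 13 were kept with DESeq2, 10 with limma-voom, 12 with total counts alone, 12 with at least 10 counts in 4 clones (which left *APCDD1L* untested) and 11 with the clone number as a replicate block, which called 12 Wnt genes in all. The clone numbers were not treated as pairs in the main fit. Deviations of same-numbered IMF and SF clones had correlations from -0.00933 to 0.139 (mean 0.0548, 4 pairs). Those of differently numbered clones ran from -0.105 to 0.109 (mean -0.0184, 12 pairs). Of 4 IMF clones, 2 correlated best with their own number. With so few pairs these values cannot decide whether the numbers mark clones of the same animal. The log2 fold change turned sign in at least 1 alternative in 15 of the 52 genes, none of them past the test as reported. With 1 clone left out the ranges were -0.29 to 0.05 for *CTNNB1*, -0.46 to 0.36 for *WNT5B*, -0.15 to 0.08 for *ZNRF3*, -0.36 to 0.14 for *LGR4*, -0.90 to 0.06 for *AXIN2*, -0.48 to 0.32 for *APCDD1*, -0.20 to 0.21 for *KREMEN1*, -0.47 to 0.41 for *KREMEN2*, -0.14 to 0.11 for *ROR1*, -0.24 to 0.04 for *FZD10*, -0.06 to 0.49 for *FZD4*, -0.05 to 0.28 for *FZD6*, -0.03 to 0.60 for *NKD1*, -0.34 to 0.01 for *WNT8B* and -0.83 to 0.36 for *WNT3*. With total counts alone, the sign also turned in *ZNRF3* (0.10), *LGR4* (0.03), *KREMEN1* (0.07), *KREMEN2* (0.05), *FZD10* (0.04), *ROR1* (0.12), *WNT3* (0.09) and *WNT8B* (0.02). With limma-voom it turned in *LGR4* (0.02) and *NKD1* (-0.05), and with the replicate block in *LGR4* (0.01). The cause was not tested. *WNT3*, *WNT9B* and *RSPO2* had at most 10 counts in any clone and *DKK1* at most 17. How far depth or the spread among clones limits these genes was not tested.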
